A study of Mus musculus with 4 samples.

Results

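Of 32285 gene identifiers in the count files, 8 were the small GTPases of the Ras family described here, Nras, Hras, Rras, Rras2, Rap1a, Rap1b, Rheb and Rasd1. They were chosen by gene symbol, and each symbol matched 1 row. The proximal tissue of lower mouse incisors was taken at postnatal day 15, dissociated and cleared of dead cells, and single-cell libraries were made with the 3′ kit of 10x Genomics, in which a unique molecular identifier (UMI) lets every captured transcript be counted once. There were 2 libraries of WT mice and 2 of Din-KO mice. Din-KO mice carry the tm1b allele of Din (4930453N24Rik) in every cell, a germline knockout with a LacZ reporter at the locus, so the comparison is of whole animals and not of one cell type. The strain, the sex and the number of mice in a library are not given in the sources used here, so p-values measure only the spread between these libraries.

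Small GTPases of this family are molecular switches that are on when bound to GTP and off when bound to GDP. Exchange factors load them with GTP and GTPase-activating proteins turn them off. Ras proteins pass growth factor signals to the RAF, MEK and ERK kinases and to PI3-kinase, Rap1 proteins control integrin adhesion and cell junctions, and Rheb turns on the growth kinase complex mTORC1. In the incisor, fibroblast growth factors, which signal through Ras and ERK, are known for maintaining the progenitors at the growing end.

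The libraries held 32198098 to 54348039 UMIs over all barcodes. The filters of the study left 11310 of 20502 barcodes, 1272 to 4575 in a library, with a median of 8016 to 11587.5 UMIs per cell. Pairs of libraries shared 4 to 12 barcodes before the filters and 0 to 4 after them. Clusters of cells were named from marker genes, and the 8 GTPase genes were left out of the genes used for clustering. Mesenchyme-like cells numbered 7162, and 6 other classes had at least 20 cells in every library. Across these classes, each marker list had its highest sums in the class named from it, for example 4386 to 5271 CPM (UMIs of a gene scaled to the same total in every class and library) of endothelium markers in endothelium-like cells against at most 109.6 CPM in any other of these classes. The smaller immune classes also held markers of other cells. T or NK-like cells of WT replicates 1 and 2 held 10530 and 3130 CPM of osteoclast markers and 954 and 9276 CPM of mast or basophil markers, against 366 and 1041 CPM of their own list, while those of Din-KO held 1092 and 221 CPM of osteoclast and 49.6 and 2471 CPM of mast or basophil markers against 3068 and 2056 CPM of their own. Monocyte or dendritic-like cells held 2018 to 25734 CPM of neutrophil markers against 1312 to 2082 CPM of their own. Replicate numbers are those of the sample titles, and the library names in the labels number the libraries otherwise (WT-2 and KO-2 for replicate 1, CD1-WT and CD2-KO for replicate 2). The same-numbered libraries were alike in makeup: dental pulp-like cells made up 68.8% and 66.4% of the mesenchyme-like cells in replicate 1 of WT and Din-KO, and 28.8% and 32.8% in replicate 2.

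The members lie on 5 chromosomes. In the GRCm38 annotation all 8 are protein-coding genes. Nras, which relays growth factor signals to ERK, is on chromosome 3 from 103058285 to 103067914 (plus strand). Hras, its close relative, is on chromosome 7 from 141189105 to 141194005 (minus strand). Rras and Rras2, relatives of Ras that act in adhesion and growth, are on chromosome 7, Rras from 45017961 to 45021647 (plus strand) and Rras2 from 114046782 to 114117781 (minus strand). Rap1a is on chromosome 3 from 105727267 to 105801336 (minus strand) and Rap1b on chromosome 10 from 117813871 to 117846035 (minus strand). Rheb is on chromosome 5 from 24802823 to 24842624 (minus strand), and Rasd1, a Ras-like protein induced by glucocorticoids, is on chromosome 11 from 59963181 to 59964944 (minus strand). Rap1a overlaps 4 predicted genes on its own strand (Gm43328, Gm43329, Gm43330 and Gm43331) and Rheb overlaps 1 (Gm25363), so reads of these predicted genes could be counted with them or lost to both.

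The first comparison asked how the 8 genes are distributed over the cell classes of the tissue. Each class was compared with mesenchyme-like cells of the same libraries, on UMIs summed per library and class. Of 48 tests of a member in a class, 29 passed an adjusted p of 0.05 in edgeR's quasi-likelihood test, 25 of them higher and 4 lower than in mesenchyme-like cells. The tests passed by all genes were also many: 50.2% of 12067 genes in endothelium-like cells, 40.3% in epithelium-like, 60.2% in macrophage-like, 58.2% in monocyte or dendritic-like, 50.7% in T or NK-like and 62.6% in B-like cells. Endothelium-like cells passed in 7 of 8 members, all higher, and B-like cells also in 7 of 8, with 4 higher and 3 lower. Epithelium-like, macrophage-like and monocyte or dendritic-like cells passed in 4 of 8 each, and T or NK-like cells in 3 of 8. Nras and Rap1a were higher in each of the 6 classes, Rap1b in 5, and Rheb was lower in 1 and not called in the other 5. Fold changes are on the log2 scale after edgeR's TMM scaling and can depart from the ratio of the CPM values. This matters most in epithelium-like cells, where the 8 epithelium markers, enamel matrix genes among them, held 34051 to 351238 CPM of a library's sum.

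**Figure D1:**
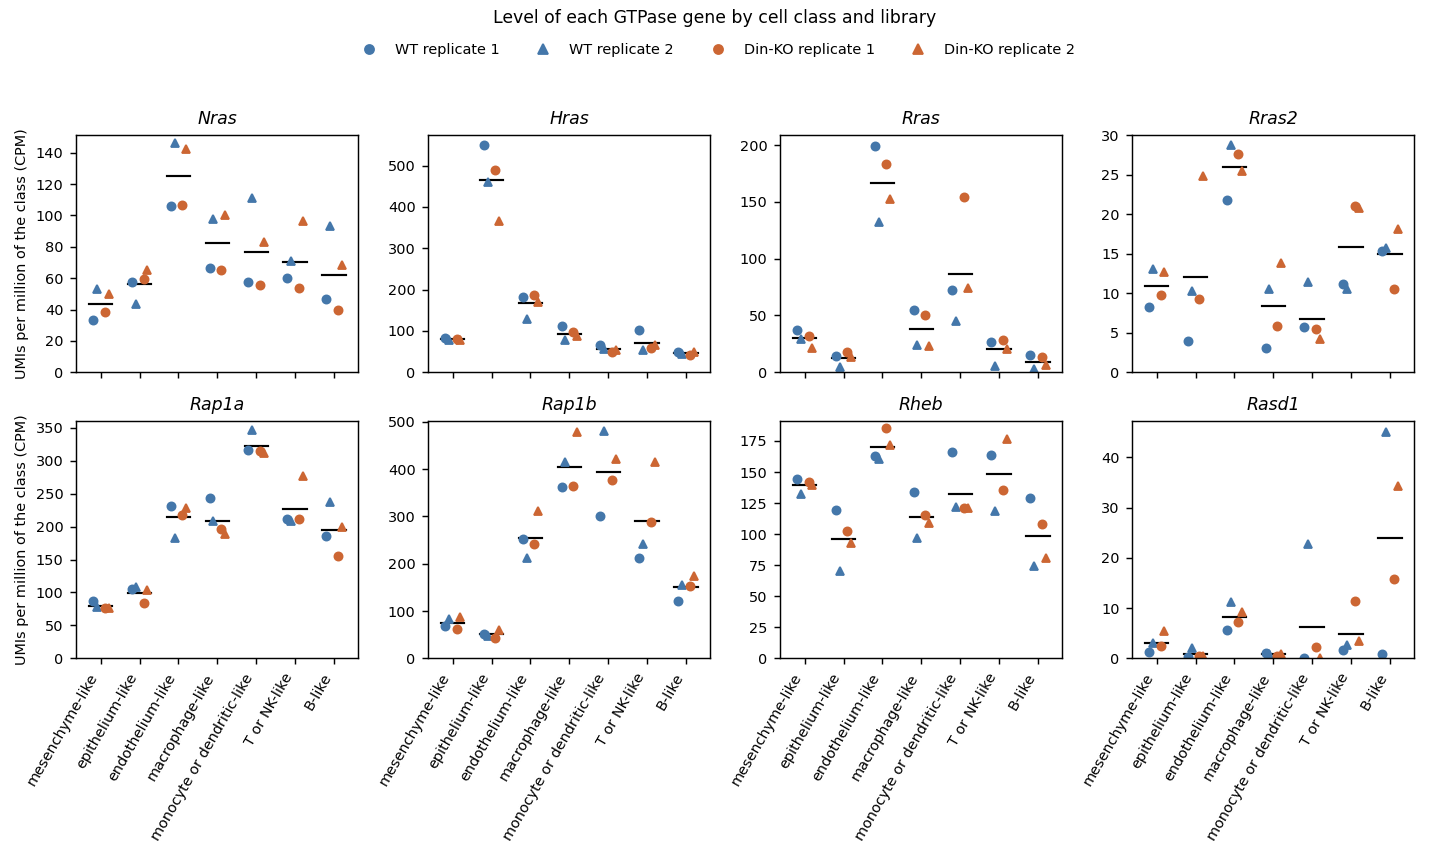
Level of each member in CPM (linear axis from 0) in 7 classes, 1 point per library, with circles for replicate 1, triangles for replicate 2 and a bar at the mean of the 4 libraries. Hras stood highest in epithelium-like cells (365 to 549.8 CPM), Rap1a and Rap1b in immune classes, and Rheb varied least, by 1.77-fold between its highest and lowest class means.

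Hras had a single peak, in epithelium-like cells. There it was at 549.8 and 461 CPM in the WT libraries and 489 and 365 CPM in the Din-KO libraries, a mean of 466 ± 77.0 CPM (SD, 4 libraries). Every one of these values lay above every value in the other 6 classes, of which endothelium-like cells were next with 129.8 to 186 CPM. The log2 fold change against mesenchyme-like cells was 2.89 ± 0.17 (SE, edgeR adjusted p = 1.19e-12). Mesenchyme-like cells held Hras at a nearly constant 77.7 to 82.6 CPM. Macrophage-like (77.3 to 112 CPM), mesenchyme-like and T or NK-like (52.7 to 103 CPM) levels overlapped as neighbours in the order, and B-like cells were lowest at 42.1 to 49.9 CPM (log2 fold change -0.66 ± 0.18, edgeR adjusted p = 0.00295).

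The epithelium-like cells were made of 2 clusters. One was led by Enam, Amtn and Amelx, genes of the enamel matrix and of the cells that make and mature it, and it held 249 cells. The other, of 330 cells, was led by Igfbpl1 and Dsc3, the latter a cadherin of epithelial desmosomes. In the enamel gene cluster, replicates 1 and 2 of WT held Hras at 949 and 452 CPM, and those of Din-KO at 688 and 409.8 CPM. The Igfbpl1 cluster held 412 and 519 CPM in WT, and 318 and 299 CPM in Din-KO. The enamel gene cluster was the higher in 3 of 4 libraries, WT replicate 2 being the exception. These cluster values are CPM without TMM scaling, so the share of a sum held by enamel matrix genes enters them. That share was not measured by cluster, and the order of the 2 clusters was not tested. Both clusters were above the 176.7 to 216 CPM of the next highest cluster by mean, the endothelium-like one led by Gja4.

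Nras was highest in endothelium-like cells. There it was at 106.1 and 146 CPM in WT and 107 and 142 CPM in Din-KO, above all values of 5 of the other classes but not of monocyte or dendritic-like cells, whose highest library reached 110.8 CPM. The fold change against mesenchyme-like cells was 1.49 ± 0.13 on the log2 scale (edgeR adjusted p = 6.88e-10). Mesenchyme-like cells had the lowest mean, 33.3 and 53.4 CPM in WT and 38.4 and 49.7 CPM in Din-KO. The classes between them overlapped from neighbour to neighbour, and in every one the gene was higher than in mesenchyme-like cells, by 0.63 (B-like) to 1.07 (macrophage-like) on the log2 scale. In epithelium-like cells, where the fold change was 0.71, this held in 3 of 4 libraries before the TMM scaling.

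Rras peaked in the blood vessel classes. In endothelium-like cells it was at 199.5 and 132 CPM in WT and 183 and 153 CPM in Din-KO, a log2 fold change of 2.42 ± 0.24 (edgeR adjusted p = 6.25e-09). The cluster led by Gja4 and Gja5, connexin genes of arterial endothelium, was the highest of the endothelium-like clusters at 174 to 308 CPM. Perivascular-like cells, the muscle and pericyte coat of vessels led by Rgs5 and Myh11, were too few for the test (10 to 26 cells a library) and held Rras at 239 and 212 CPM in WT and 237 and 133 CPM in Din-KO. Monocyte or dendritic-like cells were also high, with a fold change of 1.78 ± 0.26 (edgeR adjusted p = 2.16e-06), but ranged from 45.5 to 154 CPM and so overlapped endothelium-like cells and macrophage-like cells. Epithelium-like (4.56 to 17.6 CPM) and B-like cells (2.94 to 15.3 CPM) were lower than mesenchyme-like cells (21.2 to 37.3 CPM), with log2 fold changes of -1.04 and -1.60.

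Rras2 was scarce everywhere, and in endothelium-like cells alone it passed the test. It was at 21.8 and 28.8 CPM in the WT and 27.6 and 25.5 CPM in the Din-KO endothelium-like cells, and every library of T or NK-like cells, the next class by mean, lay below all of these. The log2 fold change against mesenchyme-like cells (8.31 to 13.1 CPM) was 1.25 ± 0.28 (edgeR adjusted p = 0.000523). The other 5 classes overlapped each other along the order. Epithelium-like cells spread widest, from 3.92 to 24.9 CPM.

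Rap1a and Rap1b shared low levels in mesenchyme-like and epithelium-like cells and high levels in immune classes and endothelium-like cells. Rap1a was highest in monocyte or dendritic-like cells, at 316 and 347 CPM in WT and 314 and 311 CPM in Din-KO, above every library of every other of these classes (log2 fold change 2.31 ± 0.16, edgeR adjusted p = 1.10e-11). T or NK-like, endothelium-like, macrophage-like and B-like cells followed with overlapping ranges between 155 and 276 CPM. Epithelium-like cells (83.4 to 108 CPM) and mesenchyme-like cells (76.0 to 87.2 CPM) lay below all of these, and their ranges overlapped across libraries. Within each of the 4 libraries epithelium-like cells were the higher, with a log2 fold change of 0.67 ± 0.15 (edgeR adjusted p = 0.00095).

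Rap1b was at 362 and 416 CPM in WT and 364 and 479 CPM in Din-KO macrophage-like cells, and at 300.3 and 480.3 CPM in WT and 377 and 421 CPM in Din-KO monocyte or dendritic-like cells. These neighbours did not differ beyond their spread. The fold changes against mesenchyme-like cells (63.0 to 87.7 CPM) were 2.58 ± 0.15 and 2.67 ± 0.16 on the log2 scale (edgeR adjusted p = 4.49e-13 and 3.52e-13). T or NK-like cells (213 to 415 CPM) and endothelium-like cells (213 to 312 CPM) followed with overlapping ranges. Both were above mesenchyme-like cells, by 2.03 ± 0.15 and 1.73 ± 0.15 on the log2 scale (edgeR adjusted p = 1.20e-10 and 7.60e-10). The B-like cells (122 to 174 CPM), the mesenchyme-like cells and the epithelium-like cells (42.9 to 60.4 CPM) stepped down from there without overlap. Epithelium-like and mesenchyme-like cells did not pass the test against each other (log2 fold change -0.25, edgeR adjusted p = 0.202).

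Monocyte or dendritic-like cells split into a cluster led by Ly6c2, Gpr141 and F10, with Ccr2 among its leading genes, and one led by Cd209a and class II histocompatibility genes. In the Ly6c2 cluster, which rests on 3 detected markers, Rap1b was at 557 and 562 CPM in WT and 559 and 529 CPM in Din-KO, the highest of any cluster by mean. In the Cd209a cluster it was at 182 and 256 CPM in WT and 188 and 208 CPM in Din-KO, with 7 cells behind the highest of these. The clusters did not overlap in Rap1b in any library. Rras also stood higher in the Ly6c2 cluster in each library, at 115 and 46.5 CPM in WT and 239 and 102 CPM in Din-KO, against 53.1 and 42.6 CPM in WT and 66.5 and 20.8 CPM in Din-KO.

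Rheb was the flattest member. Its class means ran from 96.3 CPM in epithelium-like to 170.1 CPM in endothelium-like cells, and each class overlapped the next in the order. Mesenchyme-like cells, at 144 and 133 CPM in WT and 142 and 139.6 CPM in Din-KO, stood in the middle. B-like cells alone passed the test (log2 fold change -0.40 ± 0.14, edgeR adjusted p = 0.0164). B-like cells were also the shallowest class, with a median of 2603.5 to 3550 UMIs per cell against 7589 to 15053 in mesenchyme-like cells. With every cell thinned to 2000 UMIs the Rheb fold change in B-like cells was -0.97. The part of depth in the call was not tested.

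Rasd1 rested on few UMIs, 445 over all kept cells, and differed most between libraries. In B-like cells it was at 0.959 and 45.0 CPM in WT and 15.8 and 34.3 CPM in Din-KO, so that WT replicate 1, with 1 UMI in 187 cells, lay below the mesenchyme-like level of any library. The log2 fold change was 2.83 ± 0.56 (edgeR adjusted p = 0.000106), higher in 3 of 4 libraries. The UMIs came mostly from the B-like cluster led by Ms4a1 and Iglc1, which held 38 UMIs in WT replicate 2 and 1 in WT replicate 1. Endothelium-like cells were more even, at 5.60 and 11.2 CPM in WT and 7.21 and 9.32 CPM in Din-KO (log2 fold change 1.47 ± 0.50, edgeR adjusted p = 0.0177), but the call was lost without WT replicate 1 (adjusted p = 0.0755), without Din-KO replicate 1 (0.110) and in DESeq2 (0.104). Hras in macrophage-like cells (log2 fold change 0.40, edgeR adjusted p = 0.0329) was the least stable call. It was lost in 8 of 12 alternatives, among them DESeq2 (adjusted p = 0.135), no filter (0.298) and leaving out WT replicate 1 (0.420), Din-KO replicate 1 (0.508) or Din-KO replicate 2 (0.252).

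**Figure D2:**
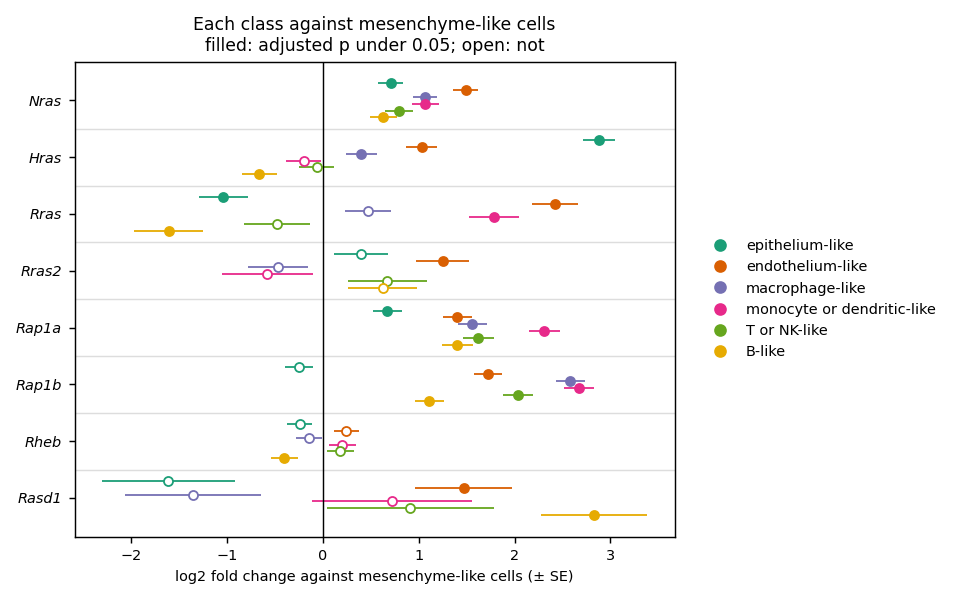
Log2 fold change of each member in 6 classes against mesenchyme-like cells (horizontal axis; whiskers are the standard error, edgeR), with filled points for an adjusted p under 0.05. All 8 endothelium-like points lie to the right of 0, from 0.25 (Rheb, open) to 2.42 (Rras), and the epithelium-like point of Hras at 2.89 lies farthest from 0.

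Within the mesenchyme-like cells, dental follicle-like cells, the sheath outside the tooth, were compared with dental pulp-like cells, the core of the tooth. Of 8 members, 4 were higher in dental follicle-like cells and none lower, where 33.4% of 12802 genes passed in either direction. Odontoblast-like cells, which make dentin, were too few for the comparison (10 to 65 a library). Rap1b was at 119 and 106 CPM in the WT and 109.1 and 117 CPM in the Din-KO dental follicle-like cells, and at 56.5 and 57.6 CPM in WT and 53.1 and 54.8 CPM in Din-KO dental pulp-like cells. The ranges were far apart, with a log2 fold change of 1.00 ± 0.07 (edgeR adjusted p = 0.000132).

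Rras2 showed the largest of the 4 fold changes, 1.18 ± 0.14 (edgeR adjusted p = 0.00107). It was at 16.5 and 17.6 CPM in WT and 19.8 and 18.0 CPM in Din-KO follicle-like cells, and at 7.01 and 10.1 CPM in WT and 8.05 and 6.33 CPM in Din-KO pulp-like cells. Rap1a (92.5 to 113 against 60.9 to 79.5 CPM) was higher by 0.53 ± 0.07 and Rras (27.9 to 51.9 against 15.3 to 35.9 CPM) by 0.77 ± 0.12, with edgeR adjusted p = 0.00170 and 0.00376. The Rras ranges overlapped across libraries, but within each of the 4 libraries follicle-like cells were the higher, by at least 0.43. By cluster, however, the 2 largest dental follicle-like clusters held Rras at means of 33.8 and 28.4 CPM, within the 12.8 to 43.4 CPM of the dental pulp-like clusters, and those led by Spp1 and by Ccl11 held 61.6 and 95.96 CPM. The Ccl11 cluster scored nearly as high for perivascular markers as for dental follicle markers, and without it the Rras fold change was 0.62 (edgeR adjusted p = 0.00633). All 4 dental follicle-like clusters held Rap1b at means of 108 to 128 CPM, above the 46.2 to 77.5 CPM of the dental pulp-like clusters. Cluster means of follicle-like and pulp-like cells overlapped for Rap1a, at 83.9 to 137 against 58.3 to 97.0 CPM. They also overlapped for Rras2, at 9.65 to 21.8 against 3.48 to 15.4 CPM, the Ccl11 cluster being the lowest of the follicle-like ones. Rheb (0.24, adjusted p = 0.0505) and Hras (0.23, adjusted p = 0.0732) just missed the threshold in edgeR, Nras (0.17) and Rasd1 (-0.46) were farther from it, and Rheb and Hras passed it at a clustering resolution of 0.5 and without integration, Rheb also without the Ccl11 cluster.

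**Figure D3:**
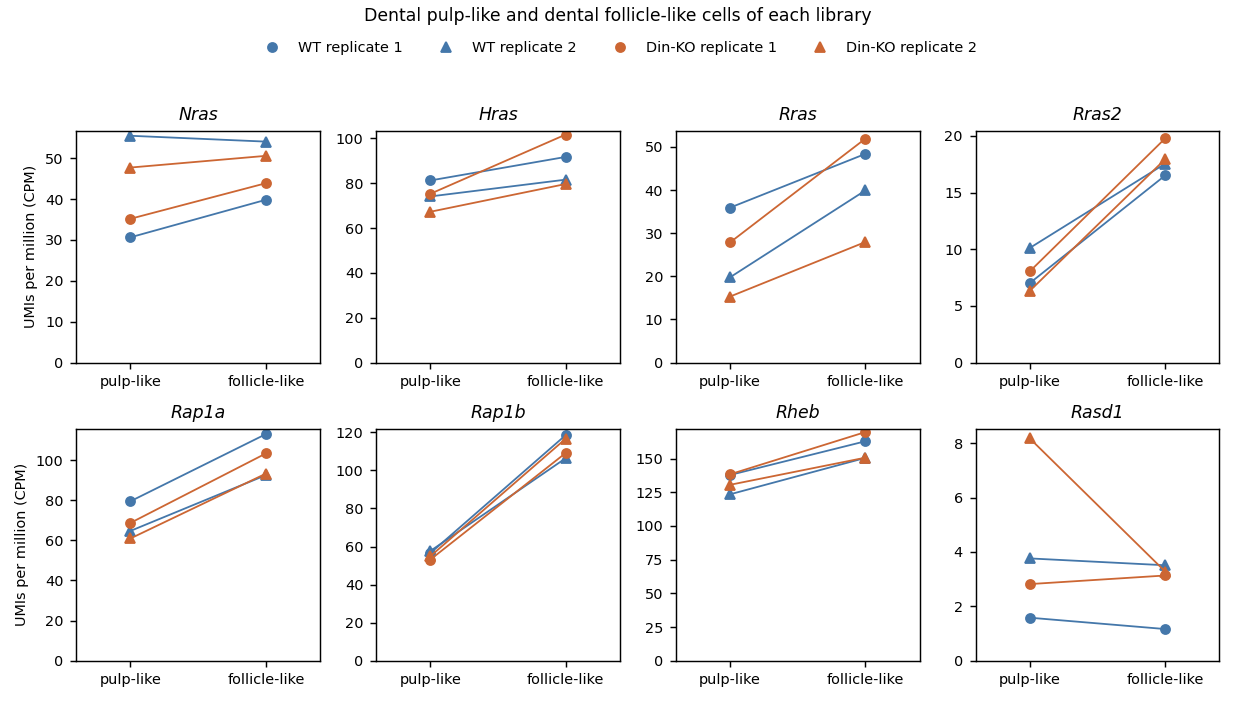
Level of each member in CPM (linear axis from 0) in dental pulp-like and dental follicle-like cells, with a line for each of the 4 libraries. The Rap1b lines climb together from 53.1 to 57.6 CPM up to 106 to 119 CPM, the Rras lines climb from different starting levels, and the Rasd1 lines cross.

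The second comparison asked whether the loss of Din was accompanied by a change in these genes in mesenchyme-like cells. None of the 8 members was called in edgeR (adjusted p = 0.999977 for each), and 0% of 15290 genes were. An unadjusted p under 0.05 was reached by 157 genes, fewer than that threshold would give with no difference between genotypes. No member had an unadjusted p under 0.05 in this fit, the smallest being 0.250. The fit held no term for the replicate number, so differences between replicates 1 and 2 entered its spread and standard errors. With that term edgeR called 96 genes, none of them a member. DESeq2 called no member either. With 2 libraries a group, the smallest two-sided p of an exact permutation test is 0.333.

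Hras, Rheb, Nras, Rras2 and Rap1b differed little between genotypes, with log2 fold changes between -0.07 and 0.03 and standard errors between 0.18 and 0.33. Nras was at 33.3 and 53.4 CPM in WT and 38.4 and 49.7 CPM in Din-KO, so the WT libraries differed from each other by 0.68 on the log2 scale and the genotypes by -0.02 ± 0.30. Rap1b was at 68.6 and 82.7 CPM in WT and 63.0 and 87.7 CPM in Din-KO. In both genes the replicate 2 libraries were above the replicate 1 libraries, whichever the genotype. Within dental pulp-like cells Nras kept this gap, at 30.6 and 55.5 CPM in WT and 35.2 and 47.7 CPM in Din-KO. Rap1b was nearly level there, at 56.5 and 57.6 CPM in WT and 53.1 and 54.8 CPM in Din-KO. In dental follicle-like cells Nras was higher in replicate 2 of both genotypes, and Rap1b in that of Din-KO alone. The part of cell makeup was not tested.

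Rap1a was the single member of which both Din-KO libraries (76.0 and 77.2 CPM) lay below both WT libraries (87.2 and 77.9 CPM), where 6.38% of all genes tested did so. The gap between the nearest pair was -0.01 on the log2 scale, and the fold change was -0.15 ± 0.19. In the opposite direction, 11.5% of all genes and no member had Din-KO libraries that both exceeded the higher WT library.

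Rras was lower in Din-KO in both same-numbered pairs, with log2 ratios of -0.23 and -0.45, at 37.3 and 28.9 CPM in WT and 31.8 and 21.2 CPM in Din-KO. Rasd1 was higher in both pairs, with log2 ratios of 0.95 and 0.86, at 1.31 and 3.05 CPM in WT and 2.54 and 5.55 CPM in Din-KO. The groups overlapped for both genes. The fold changes over the 4 libraries were -0.36 ± 0.29 and 0.85 ± 0.64, unadjusted p = 0.284 and 0.250 in edgeR. With a term for the replicate number the unadjusted p-values in edgeR were 0.0166 and 0.0144, and the adjusted ones 0.311 and 0.291. For Rasd1 the replicates of one genotype differed by more (1.21 in WT, 1.13 in Din-KO) than the genotypes.

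Measures of the libraries moved with Rasd1. The summed level of 10 genes that cell dissociation induces, such as Fos and Egr1, was 514 and 1536 CPM in the WT and 934 and 2581 CPM in the Din-KO mesenchyme-like cells, which is the same order of the 4 libraries as that of Rasd1. Its part in the Rasd1 values was not tested. With every cell thinned to 2000 UMIs the Rasd1 fold change was 0.15. Cells with a UMI of a Y-linked gene and at most 1 of Xist made up 43.4% and 43.7% of the Din-KO and 0% of the WT mesenchyme-like cells, so that sex and genotype cannot be told apart in the whole libraries. In the cells with Xist and no Y-linked UMI alone, 4784 of them, the fold changes of Rasd1, Rras and Rap1a were 1.11, -0.37 and -0.29, and none was called. Din itself was at 36.4 and 28.5 CPM in WT and 22.7 and 28.3 CPM in Din-KO. Both Din-KO values lay below both WT values, as they did in 6.38% of all genes tested, the nearest being 28.5 CPM in WT and 28.3 CPM in Din-KO. Din RNA was thus lower in the Din-KO libraries but still counted in both. Whether the counts come from the deleted exon or from elsewhere in the gene was not tested, so they do not check the genotype.

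**Figure D4:**
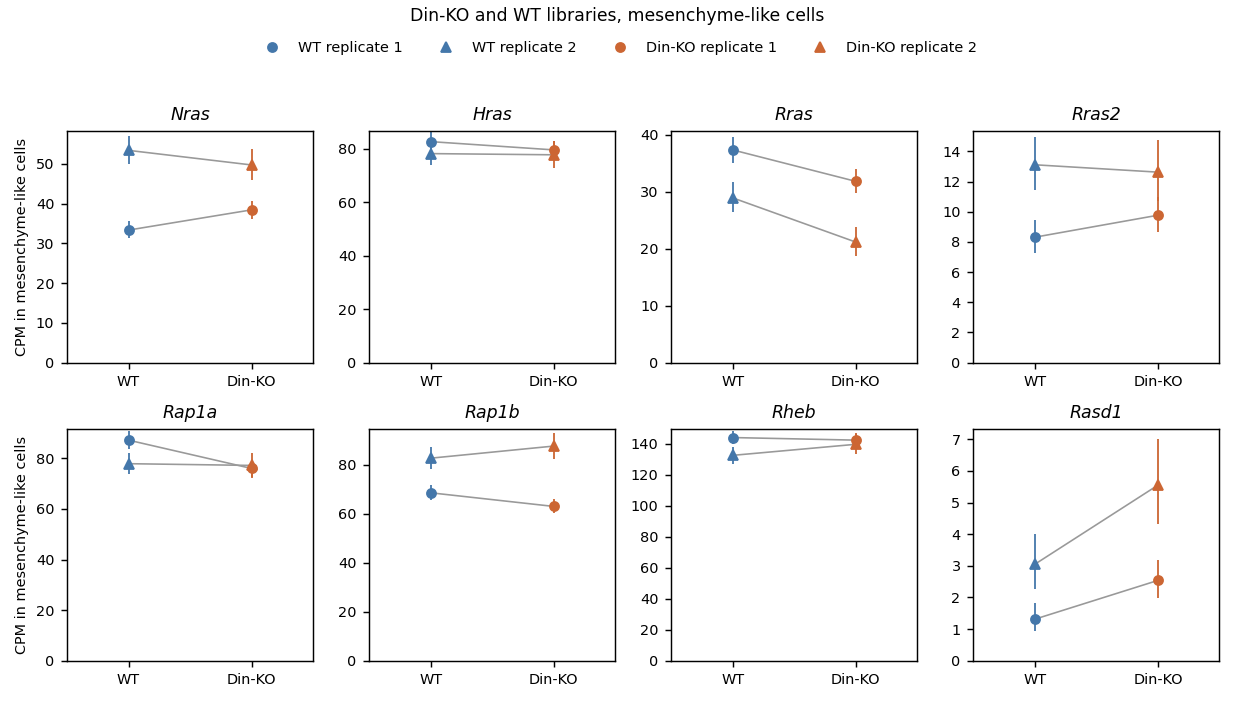
Level of each member in mesenchyme-like cells in CPM (linear axis from 0) in WT and Din-KO libraries, with grey lines joining libraries of the same replicate number and whiskers for the exact 95% Poisson interval, which covers counting error only. The Din-KO point lies lower for Rras and higher for Rasd1 on both lines, and for both genes the 2 genotypes overlap.

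In the other classes and in the dental pulp-like and dental follicle-like cells, 57 member tests of Din-KO against WT were possible, and none passed in edgeR or DESeq2. The smallest unadjusted p was 0.101. All genes tested passed at 0% in B-like, epithelium-like, monocyte or dendritic-like, T or NK-like, dental pulp-like and dental follicle-like cells, at 0.0538% in endothelium-like and at 0.0728% in macrophage-like cells. In 7 cases a member had too few UMIs for the test, Rasd1 in 4 of them. The Hras peak in epithelium-like cells was lower in Din-KO in both pairs (-0.17 and -0.34 on the log2 scale), with a fold change of -0.40 ± 0.32 and an unadjusted p of 0.268 in edgeR. The Rras peak in endothelium-like cells differed by 0.04 ± 0.29.

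The largest fold changes belonged to members with few UMIs. Rasd1 in dental pulp-like cells was counted at 1.58 and 3.76 CPM in WT and 2.82 and 8.17 CPM in Din-KO, from 16 to 48 UMIs a library (1.09 ± 0.74, unadjusted p = 0.197 in edgeR). Rras2 in epithelium-like cells was counted at 3.92 and 10.3 CPM in WT and 9.29 and 24.9 CPM in Din-KO (1.02 ± 0.82, unadjusted p = 0.265 in edgeR). Both were higher in both same-numbered pairs and overlapped between genotypes.

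The smallest unadjusted p-values were in small classes. Rras in monocyte or dendritic-like cells was at 72.7 and 45.5 CPM in WT and 154 and 74.6 CPM in Din-KO, a log2 fold change of 0.90 ± 0.47. The lower Din-KO library lay just above the higher WT library. Rap1b in T or NK-like cells, whose makeup differed between the genotypes as given above, was at 213 and 242 CPM in WT and 288 and 415 CPM in Din-KO (0.70 ± 0.37). These values did not overlap and came from 31 to 72 cells a library. Both Din-KO libraries were also below both WT libraries for Rap1a in epithelium-like, macrophage-like and monocyte or dendritic-like cells. The same held for Hras and Rheb in monocyte or dendritic-like and Rap1b in dental pulp-like cells. They were above for Nras in epithelium-like, Rheb in endothelium-like, Rap1a in T or NK-like and Rras2 in dental follicle-like cells. How many of all genes were without overlap in these classes was not counted, so no weight is put on it. In the cells with at least 2 UMIs of T or NK markers, 16 and 22 in WT and 57 and 26 in Din-KO, Rap1b was at 207 and 252 CPM in WT and 307 and 549 CPM in Din-KO (0.93 ± 0.48, edgeR adjusted p = 0.645).

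Whether the Din-KO effect in a class differed from that in mesenchyme-like cells was tested as an interaction term. No member passed in any class, and 0% of all genes did in 5 classes and 0.0166% in T or NK-like cells. The smallest unadjusted p belonged to Rras, 0.00922 for monocyte or dendritic-like and 0.0162 for epithelium-like cells, with differences from the mesenchyme-like effect of 1.34 ± 0.46 and 1.23 ± 0.46 on the log2 scale. After adjustment over all genes in edgeR both were at 1.

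Genes that act on or after these GTPases were taken from 7 lists, 115 genes in all. In mesenchyme-like cells 103 were tested for Din-KO against WT, and none was called. Of 14 tested genes that ERK signalling induces, 1 had a negative log2 fold change, and their median was 0.56 against -0.02 for all genes. Spred2, an inhibitor of Ras signalling, was at 12.2 and 14.3 CPM in WT and 18.3 and 21.4 CPM in Din-KO (0.54 ± 0.21), and Etv5, a transcription factor downstream of ERK, at 7.25 and 13.3 CPM in WT and 15.5 and 19.4 CPM in Din-KO (0.73 ± 0.36). Both Din-KO libraries were above both WT libraries in either gene, as they were in 11.5% of all genes tested. Neither gene passed after adjustment in edgeR (adjusted p = 0.999977). The 10 dissociation genes had 0 negative values and a median of 0.69, with Junb at 0.90 ± 0.41. Their part in the ERK list was not tested. The medians of the other 6 lists lay between -0.10 (other Ras family GTPases) and 0.09 (GTPase-activating proteins).

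In endothelium-like cells 12 of 15 tested exchange factors were higher and 1 lower than in mesenchyme-like cells, with a median log2 fold change of 1.48 against 0.03 for all genes, of which 50.2% were called there. The Rap exchange factors Rapgef5 and Rapgef4 were at a mean of 262 and 154 CPM there and at 1.89 and 2.55 CPM in mesenchyme-like cells, and Rasgrp3, which loads Ras and Rap, was at 177 against 0.33 CPM. The filter let a gene in through any class that held enough of it. Genes scarce in mesenchyme-like cells, here and in the next paragraph, were thus tested through classes where they were higher, which enters these counts. The shares called of the next lists were nearer to that of all genes. Of 12 tested ERK-induced genes 7 were higher and 1 lower, Dusp6, a phosphatase of ERK, with 182 against 14.9 CPM. GTPase-activating proteins were higher in 7 and lower in 2 of 14, Sipa1, which turns Rap off, with 102 against 9.20 CPM.

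Among effectors of Ras and Rap, 10 of 19 tested were higher and 4 lower in macrophage-like cells, where Rap1b was high and 60.2% of all genes were called. Apbb1ip, the Rap1 effector that links it to integrin, was at a mean of 113 CPM in macrophage-like, 205 CPM in monocyte or dendritic-like, 153 CPM in T or NK-like and 114 CPM in B-like cells, against 7.75 CPM in endothelium-like, 2.37 CPM in mesenchyme-like and 0.58 CPM in epithelium-like cells. In epithelium-like cells, where Hras was high, 5 of 15 exchange factors were higher and 4 lower, beside 40.3% of all genes called. Rasgef1a and Rasgef1b, exchange factors of Ras family proteins, were at 15.6 and 16.8 CPM there and at 0.68 and 1.51 CPM in mesenchyme-like cells. Of 9 genes of the Rheb and mTORC1 list, 2 were higher and 2 lower in epithelium-like cells, a share near that of all genes. Akt1s1, an inhibitor of mTORC1, was below its mesenchyme-like mean of 68.6 CPM in the other 6 classes (17.4 to 50.2 CPM), and lower in the edgeR test in each.

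Between dental follicle-like and dental pulp-like cells, where 33.4% of all genes were called, the ERK-induced genes, the GTPase-activating proteins and the membrane processing genes were called at shares near that. Of 13 ERK-induced genes, 4 were lower and 1 higher in the follicle-like cells. Spry1, Etv4 and Etv5, feedback and target genes of growth factor signalling, were lower, with log2 fold changes of -1.95, -1.84 and -1.12. Of 9 tested exchange factors 1 was higher and 1 lower, a share below that of all genes. The higher one was Rasgrp2, an exchange factor of Rap1, by 2.61 ± 0.16 (edgeR adjusted p = 6.03e-05). The other GTPases of the family gave 8 higher and 3 lower of 18 tested, Rem1 and Rrad, which inhibit calcium channels, being higher by 1.75 ± 0.38 and 1.68 ± 0.27. GTPase-activating proteins gave 4 higher and 1 lower of 13, among them Rasal2 and Rasa3, which act on Ras and Rap, at 1.07 and 0.93. The 9 genes that process and anchor Ras proteins at membranes gave 2 higher and 1 lower. Here too the filter let a gene in through either subclass that held enough of it, which enters these counts.

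The genes most like each member were those with the highest Pearson correlation of log2(CPM + 1) over the 28 sums of library and class. These sums share libraries and depth and are given as a description. Rap1b was closest to Tm6sf1 (r = 0.97), Pitpna (0.95) and Lcp1 (0.95), and Rap1a to Stk10 (0.94), Tm6sf1 (0.92) and Samsn1 (0.92). Hras was closest to Slc38a3 (0.91), Gclm (0.90) and Tbx1 (0.90), Nras to Map3k11 (0.90), and Rras to Atox1 (0.89) and Ifitm3 (0.89). Rheb was closest to Mrpl4 (0.86), Rasd1 to Lmbr1l (0.80) and Rras2 to Impdh1 (0.75).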

How the data were processed

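The proximal tissue of lower incisors from WT and Din-KO mice gave 2 single-cell libraries each. The values the authors deposited are raw UMI counts for each gene in each barcode, made with Cell Ranger 6.0.2 (per the file headers) against mm10/GRCm38. The filters were 1000 genes or more per cell, and no more than 10% of UMIs mitochondrial and 3% from hemoglobin genes. Seurat 5.3.0 integrated the libraries and clustered the cells on 2000 variable genes, 30 principal components and a resolution of 1, with the members and pathway genes left out. A cluster took the class with the highest mean standardized marker level, provided that at least 3 of the markers were each seen in 10% of its cells and that its 10 leading genes held no more markers of another class. This rule, and leaving a cluster led by Dmp1, Sost and Ifitm5 out of the odontoblast-like cells, were set with the data in hand. Scrublet (scanpy 1.11.5) marked 0.875% of cells as doublets. None was removed, but leaving out the 5% with the highest scores was an alternative. Free RNA in droplets was not removed.

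UMIs were summed per library and class and compared with the quasi-likelihood test of edgeR 4.0.16 after TMM scaling and filterByExpr, with p-values adjusted by Benjamini-Hochberg over all genes (threshold 0.05), without a covariate for genotype and with the library as a term between classes. CPM values are UMIs scaled to a common total per sum, and the SE is the log2 fold change divided by the root of the F statistic. DESeq2 1.42.0 was an alternative, beside other size factors, no filter, left-out libraries, other clusterings and other cell selections. The scripts were tested on simulated data. With the spread of the mesenchyme-like libraries, 10% of 100 simulated 2-fold and 51% of 100 simulated 4-fold changes between genotypes were called. For endothelium-like against mesenchyme-like cells the shares were 80% and 97%. Coordinates come from GENCODE vM21 (GRCm38). The members, markers and gene lists were chosen with earlier results of these data known. The genes named were the 8 members, in each list up to 3 genes past the threshold with the largest fold or, with none past it, the 2 with the smallest p, and the 3 genes most like each member.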

Additional observations from a re-analysis of the deposited data

How the results depend on the processing

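The counts of members called did not move by over 1.5 times under any alternative. They were 0 for Din-KO against WT in mesenchyme-like cells, in the other classes and for the interaction under each alternative run, 27 to 32 between classes and 4 to 6 between dental follicle-like and dental pulp-like cells. The replicate numbers are not stated to mark a shared day or litter. Libraries with the same number deviated together (r = 0.83 over 15290 genes, 2 pairs), and with the replicate block edgeR called 96 genes in mesenchyme-like cells where it called 0 without it. The members called stayed at 0 with the replicate block, where Rras was at -0.37 (unadjusted p = 0.0166, adjusted p = 0.311) and Rasd1 at 0.86 (0.0144 and 0.291), and Nras changed sign to 0.0158. DESeq2 called 17 genes and edgeR with a library left out 2 to 4, none of them a member.

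Some uncalled differences changed sign. For Din-KO against WT in mesenchyme-like cells, the log2 fold change ranged over left-out libraries from -0.29 to 0.35 for Nras, from -0.24 to 0.38 for Rras2, from -0.29 to 0.19 for Rap1b and from -0.0765 to 0.0766 for Rheb. Among cells chosen one by one Nras, Hras and Rheb were at 0.0068, 0.0601 and 0.0269, and among cells without stress UMIs at 0.17, 0.20 and 0.28. Thinned to 2000 UMIs Nras, Rap1b and Rheb were at 0.14, 0.0250 and 0.0642. Rheb was at 0.0022 at a resolution of 0.5 and Rras2 at -0.0151 without integration. Rras ranged from -0.68 to -0.08 and Rasd1 from 0.21 to 1.55 over left-out libraries.

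Against mesenchyme-like cells, Rheb turned to -0.0822 in monocyte or dendritic-like and -0.11 in T or NK-like cells without the filter, to -0.15, -0.22 and -0.32 in endothelium-like, monocyte or dendritic-like and T or NK-like cells when thinned, and in T or NK-like cells to -0.16 without the highest doublet scores and to -0.0039 in cells with T or NK markers alone. Hras in T or NK-like cells turned to 0.0451 at a resolution of 0.5, and Rasd1 in monocyte or dendritic-like cells to -1.06 without the highest doublet scores. Over left-out libraries Rheb ranged from -0.12 to 0.0886 in monocyte or dendritic-like and from -0.0113 to 0.16 in T or NK-like cells, Rasd1 from -1.55 to 1.34 and from -0.42 to 1.21 in the same classes, and Rras2 from -0.13 to 0.61 in epithelium-like cells. In the main fit Rasd1 was at 0.72 in monocyte or dendritic-like and 0.91 in T or NK-like cells. Rras2 was at 0.40 in epithelium-like cells, so these changes of sign were not of values near 0. The cause was not tested. Of the called differences between classes, those of Hras in macrophage-like cells, Rasd1 in endothelium-like cells and Nras in B-like cells (adjusted p = 0.0795 without the filter) lost their call under at least 1 alternative. Leaving out the highest doublet scores, thinning between classes, T or NK-like cells with own markers and the follicle without the Ccl11 cluster were chosen after seeing the data.

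With 2 libraries in a group, the spread between replicates limits the genotype comparison. Rasd1 rests on only 37 to 72 UMIs in a library's mesenchyme-like cells.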

Other observations

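Glia-like cells, too few for any test at 14 to 45 cells a library, held Hras at 215 and 99.8 CPM in WT and 199.96 and 141 CPM in Din-KO, and Rheb at 225 and 153 CPM in WT and 156 and 210.3 CPM in Din-KO. Neutrophil-like cells, 17 to 71 a library, held Rap1b at 140.3 and 352 CPM in WT and 253 and 334 CPM in Din-KO, and Rap1a at 117 and 129 CPM in WT and 144 and 127 CPM in Din-KO. Odontoblast-like cells held Rras at 5.70 and 8.85 CPM in WT and 8.73 and 9.65 CPM in Din-KO, below every dental pulp-like and dental follicle-like library (15.3 CPM or more). The odontoblast-like values rest on 30 UMIs of Rras in all, 26 of them in the replicate 2 libraries. Replicate 1 had only 10 odontoblast-like cells in WT and 16 in Din-KO, and the difference was not tested.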
